A study of Homo sapiens with 4 samples.

Results

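HIVEP1, HIVEP2 and HIVEP3 make up a small family of zinc finger transcription factors. Of the 26423 probes in the table, 3 carried one of these names in the platform annotation, 1 probe for each gene. The family was chosen by a measured value, the high reading of HIVEP2 in berberine-treated cells, so the differences of its members between the groups are given as a description, with no test. The series asked how berberine, a plant alkaloid, affects HepG2 cells, a human line from a hepatocellular carcinoma. Expression was measured with Cy5-labelled RNA on 4 one-colour arrays, 2 of HepG2 cells given 26.95 µM berberine for 24 hours and 2 of HepG2 cells without berberine. The sample descriptions disagree with this, since they name an adipocyte-type differentiation mixture (MDI) for 48 hours in all samples and 13.47 µM berberine in the treated ones, and the conflict was not resolved. Whether the replicates were separate cultures is not stated, so the spread behind every p-value is that of these arrays and may be technical alone.

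HIVEP proteins are very large nuclear proteins that carry separate clusters of C2H2 zinc fingers. They are named for binding an enhancer of the human immunodeficiency virus, and they recognise kappaB-type sites, the DNA elements that the Rel factors of the NF-kB pathway also use. They are the vertebrate relatives of the fly protein Schnurri, which acts in signalling by the fly BMP ligand Dpp, and are therefore also called Schnurri-1 to Schnurri-3. HIVEP1 was described as a factor that binds the interferon beta promoter. HIVEP2, or Schnurri-2, was reported in mouse fat precursors to act with SMAD1 and CEBPA on the PPARG promoter. HIVEP3, or Schnurri-3, was reported in mouse bone cells to act with the ubiquitin ligase WWP1 on the factor RUNX2.

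The probe names belong to a mouse array, on which 528 genes carry mouse olfactory receptor (OLFR) symbols, while the labels give human cells. Each gene name below therefore stands for the signal of a mouse probe, and how far it reads the human transcript is not known from these files. The deposited intensities had medians of 77 and 85 in berberine 1 and 2 and of 90 and 62 in controls 1 and 2. Control 2 stood apart at the dim end, with 269 probes below 0, against 1 and 11 in berberine 1 and 2 and 0 in control 1. Levels below are quantile normalized and written as log2(intensity + 1). Olfactory receptor genes, which act in the nose, served as a background mark at their 95th percentile, 9.24 on this scale. No HIVEP probe had a mean level above it, where 1626 of 17778 named genes did.

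HIVEP2 was read several-fold brighter in the berberine samples. Its probe (PH_mM_0001112) had deposited intensities of 422 and 473 in the berberine samples, against 80 and 54 in the control samples. Both berberine values were high and both control values low, with no overlap, and the lowest berberine value was 5.28 times the highest control value. On the normalized log2 scale the levels were 8.95 and 8.88 in the berberine samples, against 6.13 and 6.18 in the control samples. On that scale 21.7% of all genes had both berberine values above both control values, so the lack of overlap is common. The means were 8.91 ± 0.05 in the berberine samples and 6.16 ± 0.04 in the control samples (SD, n = 2 in each group). The log2 difference was 2.76 with an SE of 0.11, a 6.76-fold higher reading with berberine. In bulk RNA, a change in every cell and a change in the share of cells that express the gene cannot be told apart.

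**Figure D1:**
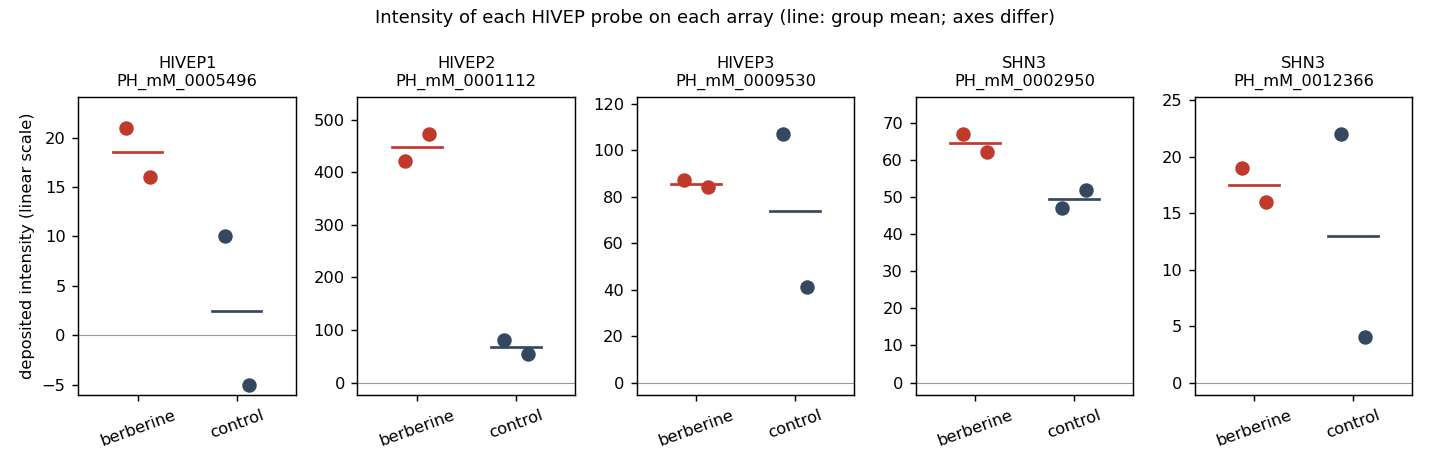
Deposited intensity (linear scale) of the 3 HIVEP probes and of 2 probes under the older HIVEP3 symbol SHN3, 1 panel per probe with its own axis, for the 2 berberine arrays on the left and the 2 control arrays on the right of each panel. Points are arrays and lines are group means. The HIVEP2 points are at 422 and 473 with berberine and at 80 and 54 in control, while the HIVEP3 points of the groups overlap.

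The HIVEP2 reading did not need normalization to be seen. Within its own array, the probe was brighter than 90.4% and 89.9% of all probes in berberine 1 and 2, against 44.4% and 46.4% in controls 1 and 2. The HIVEP2 probe thus sat in the middle of each control array and in the top part of each berberine array. Set against the olfactory receptor genes alone, its berberine mean exceeded 92.1% of them and its control mean 53.0%. The control reading therefore lay within the background range, and the fold is set against a signal in that range. The berberine mean was below the background mark of 9.24 as well.

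**Figure D2:**
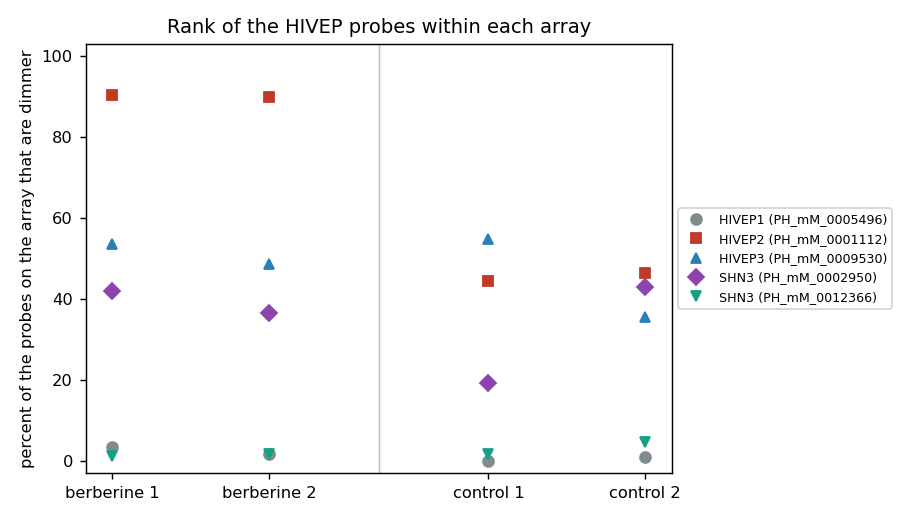
Percent of all probes on the same array that were dimmer than each HIVEP or SHN3 probe, for berberine 1 and 2 on the left and controls 1 and 2 on the right. HIVEP2 lies at 90.4 and 89.9 with berberine and at 44.4 and 46.4 in control, and the HIVEP1 probe lies below 5 on each of the 4 arrays.

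Among the 17778 named genes, the log2 difference of HIVEP2 ranked number 7 from the highest. With genes in 10 equal groups by mean signal, HIVEP2 lay in a group of 1778 genes, of which 0 had a higher log2 difference. The median absolute log2 difference in that group was 0.17. The replicates of HIVEP2 lay close together, with a pooled SD of 0.04 on the log2 scale, against a median of 0.11 in the same group of genes. In limma's test across all genes, 8 genes were called higher with berberine (0.045% of 17778) and 1 lower (0.00562%). HIVEP2 is among the 8, which is the basis on which the family was picked. Its high rank and small replicate SD favour such a call, so none of these is separate evidence.

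HIVEP1 was read at the bottom of every array. Its probe (PH_mM_0005496) had deposited intensities of 21 and 16 in the berberine samples, against 10 and -5 in the control samples. Each of the 4 values lay under the 5th percentile of its own array, which was 27 and 25 in berberine 1 and 2 and 30 and 4 in controls 1 and 2. After normalization the levels were 4.29 and 4.0 in the berberine samples, against 1.7 and 3.70 in the control samples. Both berberine values were above both control values on either scale. On the normalized scale this held for 21.7% of all genes. Normalization turned the order of the controls round, since control 2, the lower of them as deposited, became the higher. The means were 4.14 ± 0.20 in the berberine samples and 2.70 ± 1.41 in the control samples (SD, n = 2 in each group), and the log2 difference was 1.44 with an SE of 0.72. It was 2.54 with values as deposited and 0.23 with 50 in place of 1 added before the log, so its size follows the scale chosen. Leaving out control 1 alone brought it to 0.56.

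HIVEP3 showed no separation of the groups. Its probe (PH_mM_0009530) had deposited intensities of 87 and 84 in the berberine samples, against 107 and 41 in the control samples. The berberine values lay between the control values. The normalized levels were 6.51 and 6.30 in the berberine samples, against 6.55 and 5.83 in the control samples, with a log2 difference of 0.22 and an SE of 0.28. The control arrays decided its sign, since the difference was -0.14 without control 2 and 0.60 without control 1.

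The annotation also held 2 probes under SHN3, which RefSeq lists as an older symbol of HIVEP3 alone. They fall outside the rule for members and were added after their values were seen. The first (PH_mM_0002950) had intensities of 67 and 62 in the berberine samples, against 47 and 52 in the control samples. These groups were apart as deposited, but the normalized levels overlapped, at 6.09 and 5.87 with berberine against 5.27 and 6.11 in control. The second (PH_mM_0012366) had intensities of 19 and 16 in the berberine samples, against 22 and 4 in the control samples. Its log2 difference was -0.29, where the first SHN3 probe had 0.29 and the HIVEP3 probe 0.22. The 3 probes named for this gene thus gave small differences of both signs, with groups that overlapped after normalization.

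**Figure D3:**
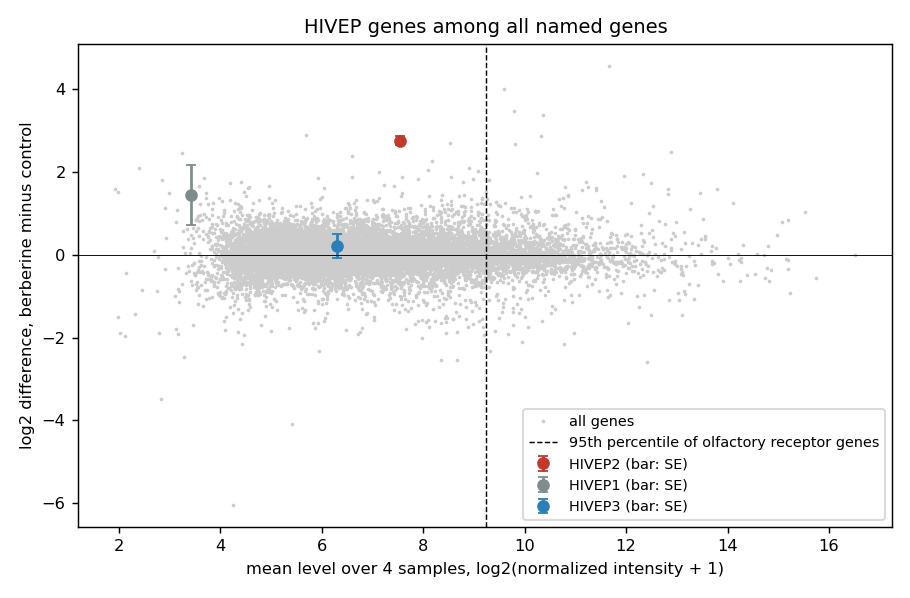
Log2 difference (berberine minus control) against the mean level over 4 samples for 17778 named genes (grey), with HIVEP2, HIVEP1 and HIVEP3 marked with their SE. The dashed line is the olfactory receptor mark of 9.24. HIVEP2 stands at 2.76, above the cloud of genes with a similar level, and all HIVEP genes lie left of the line.

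The genes most like HIVEP2 were found from the distance between centred log2 levels over the 4 samples (root mean square difference). They are BHLHE40, a helix-loop-helix repressor that acts in the circadian clock, at a distance of 0.05, JAG1, a Notch ligand, at 0.15, and FOS, a subunit of the AP-1 factor, at 0.19. VGF, the precursor of secreted neuropeptides, followed at 0.21 and LIF, a cytokine of the interleukin-6 family, at 0.22. All of them were read higher in the berberine samples, which their likeness to HIVEP2 implies.

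VGF had levels of 11.13 and 11.16 in the berberine samples, against 8.73 and 8.20 in the control samples. LIF had levels of 11.73 and 11.82 in the berberine samples, against 9.15 and 8.64 in the control samples. The controls of these genes lay further apart than those of HIVEP2, BHLHE40 (7.17 and 7.19) and FOS (5.44 and 5.38). Of 17777 other genes, 6 lay within a distance of 0.25 and 23 within 0.5. The distance was 0.95 for HIVEP1 and 1.30 for HIVEP3, against a median of 1.39 over all genes.

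**Figure D4:**
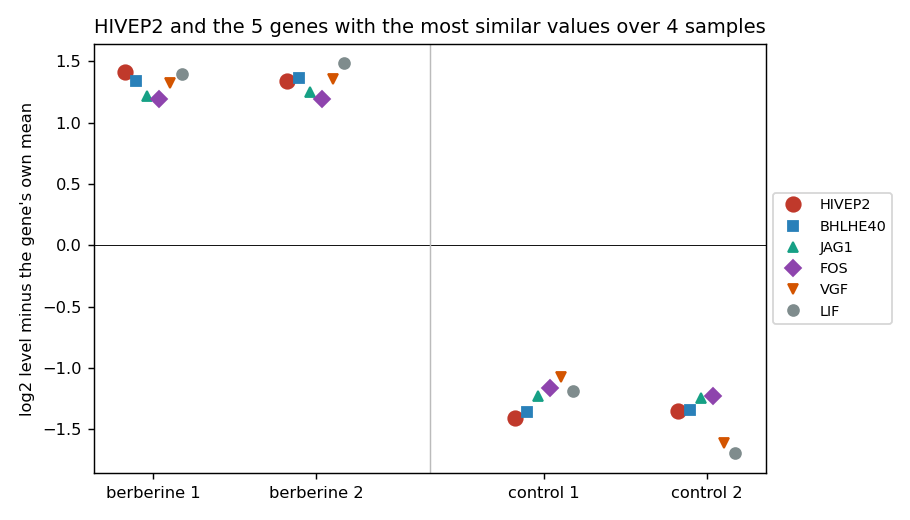
Log2 level minus the gene's own mean for HIVEP2 and the 5 genes nearest to it, for berberine 1 and 2 on the left and controls 1 and 2 on the right. The genes were picked for this likeness. VGF and LIF differ from the rest by a wider gap between the controls.

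RefSeq gives windows around the starts of human HIVEP2 (assembly GRCh38.p14, minus strand), from 250 bases before to 50 after each start. They are shown because HIVEP2 is the member whose reading differed. Exact matches were sought on both strands for a kappaB core (GGGACTTTC), the EGR site (GCGTGGGCG), the AP-1 site (TGANTCA), the cyclic AMP element (TGACGTCA) and a GC box (GGGGCGGGG), with matches in capitals. The arrays name mouse probes, and the windows are human.
HIVEP2 at chr6:142945684-142945983: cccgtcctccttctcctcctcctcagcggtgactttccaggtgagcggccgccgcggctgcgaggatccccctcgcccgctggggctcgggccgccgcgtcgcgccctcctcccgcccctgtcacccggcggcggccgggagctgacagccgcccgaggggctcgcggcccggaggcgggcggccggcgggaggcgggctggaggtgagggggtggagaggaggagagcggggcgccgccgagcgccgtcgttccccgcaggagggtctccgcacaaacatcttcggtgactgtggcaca
HIVEP2 at chr6:142945127-142945426: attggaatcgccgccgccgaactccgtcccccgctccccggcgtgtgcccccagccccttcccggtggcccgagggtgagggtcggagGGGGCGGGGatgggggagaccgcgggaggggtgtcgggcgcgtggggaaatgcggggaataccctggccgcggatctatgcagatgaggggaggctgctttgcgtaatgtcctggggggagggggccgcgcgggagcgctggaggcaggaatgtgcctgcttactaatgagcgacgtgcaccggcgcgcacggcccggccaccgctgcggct

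The first window held 0 matches and the second 1, a GC box, which 15.7% of the 35116 windows in the table hold. The other motifs were found in 0.387% (kappaB core), 0.795% (EGR), 7.71% (AP-1) and 1.85% (cyclic AMP element) of all windows. No match says only that these letters are not in this stretch. Both windows are rich in G and C, at 76.7% and 72.0%, against a median of 58.7% over all windows. This is not particular to HIVEP2. A HIVEP3 window (not shown) had 76.3% G and C with 2 GC boxes, and another had 38.7% with 0.

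The other zinc finger genes were compared as a class. Of 294 genes named ZFP or ZNF with a number, 0 passed limma's main test. At an unadjusted p under 0.05 there were 24 higher and 17 lower, near the share over all genes, of which 6.68% were higher and 6.36% lower at that p (1188 and 1130 of 17778). Their log2 differences ran from -1.69 to 1.30. The median was -0.0025, against -0.0091 over all genes. Limma with an intensity trend in its variance model, called the trend test here, called 0.962% of all genes higher and 0.501% lower. It called 2 of the 294 higher and 1 lower.

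The NF-kB factors share kappaB sites with the HIVEP proteins. All 13 listed subunits, inhibitors and kinases were measured, and 0 passed the main or the trend test. At an unadjusted limma p under 0.05 there was 1, higher, where 6.68% of all genes were higher at that p. NFKBIA, which encodes the inhibitor IkB-alpha, had the smallest p, with levels of 6.12 and 6.25 in the berberine samples, against 5.83 and 5.78 in the control samples (log2 difference 0.38, SE 0.12, limma adjusted p = 0.338). The Rel subunit NFKB1 was at 0.31 (limma adjusted p = 0.454) and RELA at 0.09 (0.845). The kinase gene IKBKB was at -0.12, while a second, dimmer probe of it was at 0.56. Of the 13 genes, 3 had groups apart with berberine higher and 3 with berberine lower, where 21.7% and 23.3% of all genes did. The list's median log2 difference was -0.10, and its sign turned under other scalings, to 0.13 for intensities as deposited and 0.01 after median centring. All 13 had mean levels below the background mark, which 1626 of 17778 named genes exceeded.

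The BMP-SMAD pathway is the one in which Schnurri proteins were first described. Of 19 measured genes, 0 passed the main test, and 2 rose in the trend test, where 0.962% of all genes did. At an unadjusted limma p under 0.05 there were 4 higher and 0 lower, against 6.68% and 6.36% of all genes. ACVR1, a type I BMP receptor, had levels of 9.01 and 9.17 in the berberine samples, against 7.43 and 7.85 in the control samples. Its log2 difference was 1.45 with an SE of 0.19 (limma trend adjusted p = 0.0351, main 0.13). ID2, an inhibitor of helix-loop-helix factors and a known BMP target, had levels of 9.37 and 9.28 in the berberine samples, against 8.18 and 8.42 in the control samples. Its log2 difference was 1.02 with an SE of 0.14 (limma trend adjusted p = 0.0318, main 0.133). The groups of both genes were apart, and their mean levels, 8.36 and 8.81, lay below 9.24.

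The other genes of the list did not pass either test. Of these, SMAD7, an inhibitory SMAD with a mean level of 10.47, was at 0.53 (limma adjusted p = 0.332), and the type II receptor BMPR2 was at 0.38 (0.307), both with groups apart. Of the SMAD proteins that carry the BMP signal to the nucleus, SMAD1 was at 0.02 (limma adjusted p = 0.959) and SMAD4 at -0.07 (0.877). SMAD5 was at -0.10 and SMAD9 at 0.07, while a second, dimmer SMAD5 probe was at 0.63. The other genes of the ID family were at -0.22 for ID1, whose SE was 0.73, 0.15 for ID3 and 0.14 for ID4. The pathway's median log2 difference was 0.09, against -0.01 over all genes, and it was 0.27 for intensities as deposited and 0.16 after median centring. Groups were apart with berberine higher for 5 of the 19 genes, near the 21.7% of all genes, and with berberine lower for 0, where 23.3% of all genes were. With any one of the 4 arrays left out, a group held a single array. Such runs cannot show whether the calls of ACVR1 and ID2 hold.

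Genes reported as targets or partners of HIVEP proteins were the last list, with 11 of 14 measured. MYC, IL2 and CRYAA were not analysed here. None passed the main test, and 1 fell in the trend test, where 0.501% of all genes did. At an unadjusted limma p under 0.05 there were 2, both lower, where 6.36% of all genes were lower at that p. CEBPA, the liver and fat transcription factor that Schnurri-2 partners in mouse fat precursors, had levels of 10.08 and 9.99 in the berberine samples, against 11.99 and 11.85 in the control samples. Its log2 difference was -1.89 with an SE of 0.12 (limma trend adjusted p = 0.00489, main 0.0688). Runs with an array left out cannot show whether this call holds either. The means lay above the background mark in both groups.

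PPARG, the fat cell regulator on whose promoter that pair was reported to act, was at -0.06 (limma adjusted p = 0.936), with a mean level of 4.75. COL2A1, a cartilage collagen, was at -0.72 (limma adjusted p = 0.222, trend 0.0908). JUN, the AP-1 subunit that HIVEP3 was reported to bind in T cells, was at 0.02 (limma adjusted p = 0.975), and RUNX2 was at -0.32 with an SE of 0.34. The median of the 11 genes was -0.02, against -0.01 over all genes. Its sign turned for intensities as deposited, where it was 0.03.

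**Figure D5:**
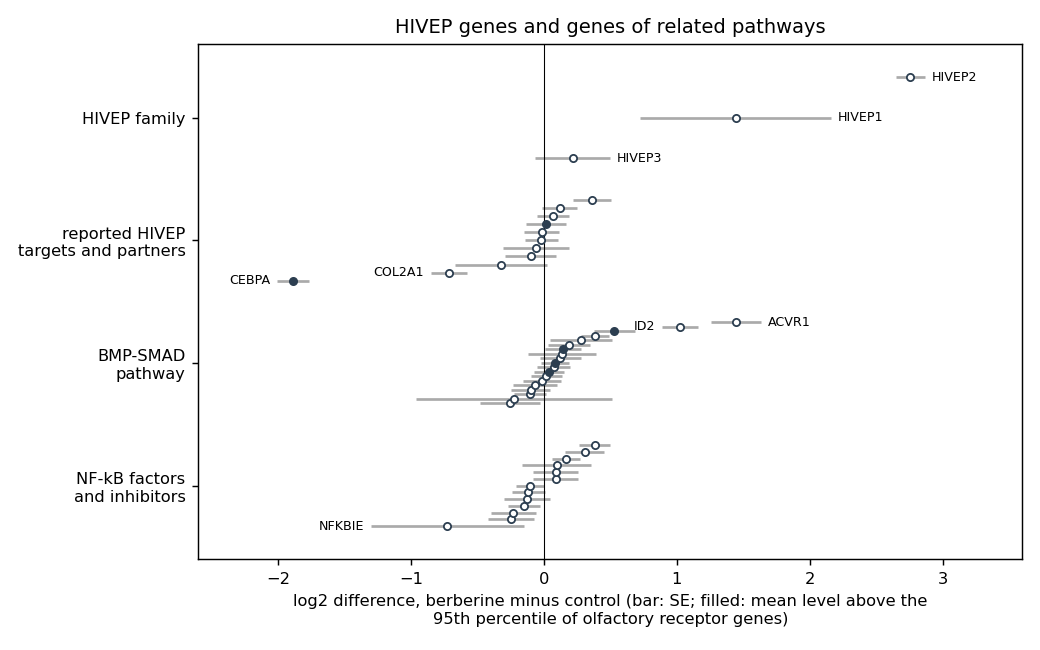
Log2 difference (berberine minus control) with its SE for the HIVEP family and for 3 lists of related genes, 1 point per gene. Filled points have a mean level above the olfactory receptor mark of 9.24. HIVEP2 lies at 2.76, ACVR1 at 1.45 and ID2 at 1.02 are the highest of the lists, and CEBPA at -1.89 is the lowest.

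The labelled cell type was checked against marker genes. Of 11 measured hepatocyte markers 0 had a mean above 9.24, where 1626 of 17778 named genes did. AFP, the alpha-fetoprotein typical of this line, was at 4.75. The summed normalized intensity of the 11 markers was 1242 to 1576 in the berberine samples, against 1704 to 1722 in the control samples. The wide berberine range came from APOA2, an HDL apolipoprotein, which read 7.30 and 9.04 in berberine 1 and 2. Without it the sums were 1052 to 1085 in the berberine samples, against 1199 to 1237 in the control samples. The median log2 difference of those 10 markers was only -0.03, with genes on both sides, such as ALB at -0.41 and APOA1 at 0.24. FGG, the fibrinogen gamma chain, was the 1 marker called in the trend test, lower, at -1.77 (limma trend adjusted p = 0.0163, main 0.0688). That test called 0.501% of all genes lower.

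Of 10 adipocyte markers 1, the glucose transporter SLC2A4, had a mean above 9.24. Their sum was 1625 to 1670 in the berberine samples, against 1725 to 1740 in the control samples. The brightest genes weigh most in it, and these were SLC2A4, at a log2 difference of -0.02, and PLIN1, at -0.09. Single genes lay on both sides, such as the fatty acid carrier FABP4 at 1.00 (limma trend adjusted p = 0.06) and the hormone RETN at -1.20 (0.111). Of 7 measured fibroblast markers 0 had a mean above 9.24, and their sum was 523 to 533 in the berberine samples, against 427 to 441 in the control samples. That gap was the matrix gene POSTN alone, since the other 6 summed to 307 to 311 in the berberine samples, against 315 to 327 in the control samples. No marker averaged 0. No measured marker of the labelled cell type lay above the background mark. Only 1626 of 17778 named genes did, so these counts cannot settle the cell type. The part of the marker genes in the HIVEP2 reading was not tested.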

How the data were processed

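Per the labels, total RNA of 2 berberine and 2 control samples was Cy5-labelled and read on one-colour arrays. The authors deposited whole-number intensity values on a linear scale, some below 0. How these were scanned, corrected for background or normalized is not stated in the labels or the file. The annotation named 20377 of 26423 probes with 1 symbol and 0 with several, and the other 6046 were left out of the main test.

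The array medians spanned 0.53 on the log2 scale, so intensities were quantile normalized over all probes, set to at least 0, and written as log2(value + 1). The brightest probe stood for a gene. Differences were fitted in R 4.3.3 with the lmFit and eBayes functions of limma 3.58.1 (no trend, no block, 2-sided), with 2 residual degrees of freedom and Benjamini-Hochberg adjustment over 17778 genes at a threshold of 0.05. The fit was tested on simulated data. Figures were drawn with matplotlib 3.10.9. The number of arrays limits the precision.

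The members, lists, motifs and background mark were chosen with earlier results of these data known. Named genes are the HIVEP probes, list members past a test or with the smallest p, a few fixed genes, and the 5 genes nearest to HIVEP2. ID1, ID3, ID4, SMAD5, SMAD7, SMAD9, BMPR2, IKBKB, COL2A1, RUNX2, the markers of cell types and the genes of the closing observations were named after their values were seen. Alternatives were values as deposited, median centring, leaving out the dimmest 30% of genes, a pseudocount of 50, an intensity trend, each probe as its own row, averaged probes per gene, the replicate number as a block, and each sample left out. The trend test with each sample left out was added after seeing the data.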

Additional observations from a re-analysis of the deposited data

How the results depend on the processing

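The log2 difference of HIVEP2 was positive in all 12 other settings, from 2.14 to 2.82. It was 2.63 with median centring, 2.14 with a pseudocount of 50, and 2.68 to 2.82 with 1 sample left out. HIVEP1 was at 2.54 with values as deposited and 0.23 with a pseudocount of 50, and it dropped out with the dimmest 30% of genes. HIVEP3 ran from -0.14 (without control 2) to 0.60 (without control 1). HIVEP2 was among the called genes in 4 of these 12 settings. The family was picked on that call, so this tally is a description and no separate evidence. Apart from runs with 1 sample left out, the other settings called 2 genes or fewer in all. The count of genes called higher and lower was 8 and 1 in the main limma test, 2 and 0 with values as deposited, 92 and 46 without the dimmest genes, 166 and 85 with a pseudocount of 50, and 171 and 89 with the trend. It was 0 and 0 with median centring (572 and 1675 at an unadjusted limma p under 0.05), with each probe as its own row (1608 and 1493) and with any 1 sample left out, with or without the trend (617 to 1681 and 698 to 1419). With the replicate block it was 0 and 0 as well (949 and 929). With 1 sample left out, a group held a single array, so the counts there cannot show whether a call holds. Deviations of same-numbered samples correlated at r = 0.09 across all genes and 0.33 across the 1626 genes above the background mark. With 2 pairs and no such statement in the labels, the numbers were not taken to pair the samples. The BMP-SMAD list had 2 called genes with a pseudocount of 50 and with the trend, and the list of targets and partners 1 in both and without the dimmest genes. The NF-kB list had 0 in every alternative run. The NF-kB median was 0.09 without the dimmest genes or with the mean of probes, and 0.08 without control 1, against -0.10 in the main test. The cause of these shifts was not tested.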

Other observations

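Within the 294 zinc finger genes named ZFP or ZNF, those that passed the limma trend test were picked out after their values were seen. ZFP605 was at 8.78 in the berberine samples and 7.62 in the control samples (log2 difference 1.16, limma trend adjusted p = 0.0257, main 0.117). ZFP410 was at 8.90 in the berberine samples and 8.07 in the control samples (0.83, limma trend adjusted p = 0.0481, main 0.166). ZFP362 was at 7.97 in the berberine samples and 9.35 in the control samples (-1.38, limma trend adjusted p = 0.0121, main 0.0938). The mean levels of all of them lay below the olfactory receptor mark of 9.24. With 1 array left out, a group held a single array, so those runs cannot show whether these calls hold.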
